A study of Mus musculus with 6 samples.

Results

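Transcripts of the Hedgehog pathway were measured in E13.5 mouse cortex, with and without the RNA-binding protein Ybx1. The 10 genes described here are the ligand gene Shh, the receptor genes Ptch1, Smo, Boc and Cdon, the decoy receptor gene Hhip, and the intracellular genes Sufu, Gli1, Gli2 and Gli3. They were picked by symbol, as known parts of the pathway, from the 17348 genes of the count table, and all 10 were found. Cortices were dissected from 3 embryo samples labelled WT and 3 labelled cKO. The cKO embryos carried 2 floxed alleles of Ybx1 and the Nestin-Cre transgene (Nestin-Cre, Ybx1 fl/fl), and the floxed part spans exons 3 to 8. The WT samples are called wild-type littermates in the study's methods, the study elsewhere uses Ybx1 fl/fl mice without Cre as the control, and the labels do not give their alleles. Nestin-Cre acts mainly in neural progenitors and their progeny, so vessels, meninges and blood in the dissected tissue may keep the gene, which was not tested.

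Sonic hedgehog is a secreted signal that patterns the ventral forebrain. Without ligand, the receptor Ptch1 holds the transducer Smo inactive, the Gli transcription factors are processed into repressors or held by Sufu, and the pathway is off. Ligand binding, aided by the coreceptors Boc and Cdon, releases Smo into the primary cilium and turns Gli2 and Gli3 from repressor towards activator forms. Activated cells transcribe Gli1, Ptch1 and Hhip, which are therefore widely used as readouts of pathway activity. In the forebrain the ligand comes from ventral and midline sources, the ventral ganglionic eminences respond to it strongly, and the dorsal cortex is a territory where Gli3 repressor predominates.

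The libraries held 15907491 to 16282929 estimated counts. Levels are given as CPM, that is, counts scaled to a common library total with TMM factors, and per-library values are listed in the order of replicates 1, 2 and 3. A count of 0 allows a level of up to 0.181 to 0.188 CPM, for counting error only. Ybx1 itself was at 1021, 528 and 1220 CPM in WT and at 83.1, 117 and 147 CPM in cKO. Among the WT libraries, replicate 2 had the lowest Ybx1 level, intermediate between the 2 genotypes, and so goes partly against its label. Between genotypes Ybx1 differed by -3.00 on the log2 scale (cKO against WT, standard error 0.33, edgeR quasi-likelihood test, adjusted p = 0.128), and by -3.28 without WT replicate 2 (edgeR adjusted p = 0.0206). Adjusted p-values of Ybx1 over the 16 alternative fits ran from 5.46e-10 (DESeq2) to 0.974, and 4 fits called it. cKO replicate 3 stood apart by markers of other tissues: its 9 embryonic epidermis markers summed to 274 CPM against 1.88 to 2.56 CPM in the other 5 libraries, and its 10 meninges markers summed to 530 CPM against 8.74 to 17.1 CPM. The 12 dorsal pallium markers summed to 4050 to 4830 CPM in WT and 3731 to 4767 CPM in cKO, so every library carried the labelled tissue. Values without WT replicate 2 or cKO replicate 3 are given beside the results that they move most. The series describes 3 batches of sequencing without naming their libraries, so batch and genotype cannot be told apart here.

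The ligand transcript was at the limit of detection. Shh (Entrez gene 20423, chr5:28456840-28467101, GRCm38.p6) had 1, 0 and 1 counts in WT and 0 counts in each cKO library. All 6 values lie under 3 counts, the level that a count of 0 still allows. Shh was thus not detectable at this depth in either genotype and entered no test. A non-coding antisense gene, 9530036O11Rik, overlaps 8983 bases of Shh on the opposite strand. Whether counting used strand is not given in the sources used here, so reads of the pair cannot be told apart. The other ligand genes were low as well. Ihh, coding for Indian hedgehog, was at 0.377, 0.186 and 0.313 CPM in WT and at 0.686, 0.439 and 0.422 CPM in cKO. Dhh, coding for Desert hedgehog, was at 0.126, 0.186 and 0.188 CPM in WT and at 0.125, 0 and 0.121 CPM in cKO. The cKO libraries lay above the WT libraries for Ihh, as for 4.21% of all tested genes. All Dhh values lay at or under the 0.181 to 0.188 CPM that a count of 0 allows, so its groups cannot be ordered. Both genes were too low to be tested.

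Per transcript length, the remaining genes spanned a wide range of levels. Values in TPM, the transcript share scaled for length, were highest for Cdon, at 180 to 227 over the 6 libraries. Smo followed at 69.0 to 90.3 TPM, Gli3 at 50.9 to 72.6 TPM and Boc at 51.8 to 70.2 TPM. Sufu lay at 34.0 to 45.2 TPM and Gli2 at 23.3 to 31.0 TPM. The 3 target genes were the lowest detected, with Ptch1 at 4.80 to 6.65 TPM, Gli1 at 0.70 to 1.96 TPM and Hhip at 0.03 to 0.36 TPM. In this order the ranges of Smo and Gli3, of Gli3 and Boc, and of Hhip and Shh overlapped, and every other pair of neighbours was separated in all 6 libraries. The receptors, the transducer and the Gli2 and Gli3 factors were thus well detected in tissue in which the ligand was at the limit of detection.

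**Figure D1:**
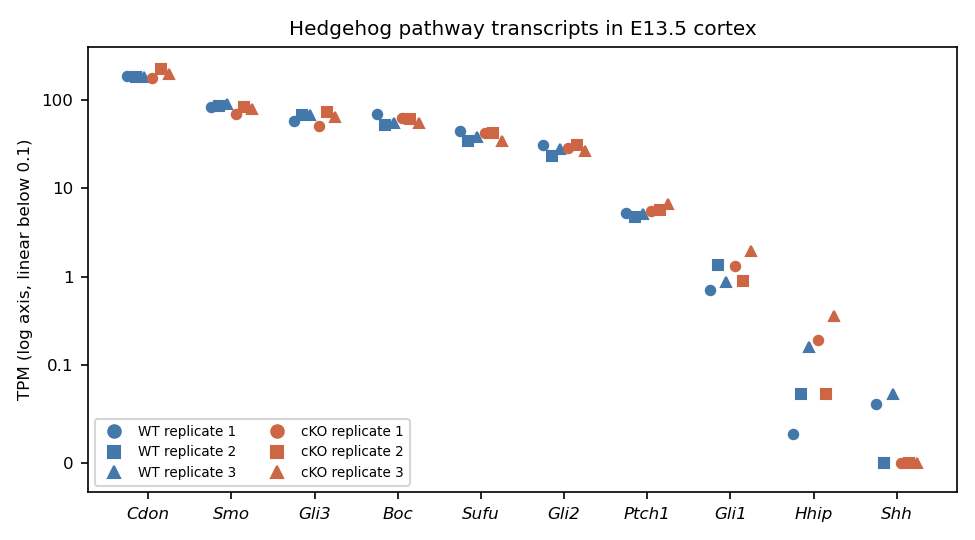
TPM of the 10 Hedgehog pathway genes in each of the 6 libraries (vertical axis logarithmic, linear below 0.1; blue WT, orange cKO, 1 point per library), ordered by mean level. Cdon lies at 180 to 227 TPM, the target genes Ptch1, Gli1 and Hhip lie at or under 6.65 TPM in all libraries, and Shh is at 0 in 4 of 6 libraries.

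Whether these transcripts differ between genotypes was tested in a fit across all genes. Of the 10 genes, 9 passed the filter on low counts, and Shh did not. None of the 9 passed an adjusted p of 0.05 (edgeR quasi-likelihood test, Benjamini-Hochberg over 13340 genes), where the share over all tested genes was 0%. At an unadjusted p of 0.05 the count was again 0 of 9, against 476 of all 13340 genes (3.57%; 1.75% higher in cKO and 1.81% lower). DESeq2 also called 0 of the 9 at an adjusted and 0 at an unadjusted p of 0.05. Log2 fold changes of cKO against WT were positive for 7 genes and negative for 2, against 50.8% positive among all tested genes. Their median was 0.07, beside 0.0019 over all tested genes. The CPM of all 3 cKO libraries lay above all 3 WT libraries for 1 gene, Ptch1 (4.21% of all tested genes), and lay below for 0 genes (4.83% of all tested genes). Each of the 9 genes had an adjusted p of 0.99995.

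Of the receptors, Ptch1, the ligand-binding inhibitor of the pathway, is described with the targets. Smo (Entrez gene 319757, chr6:29735497-29761366), the transducer that Ptch1 restrains, was at 140, 157 and 162 CPM in WT and at 118, 155 and 140 CPM in cKO. The groups overlapped, and cKO replicate 1 was the lowest library. Mean levels were 153 ± 11.5 CPM in WT and 138 ± 18.4 CPM in cKO (SD, n = 3 each). The log2 fold change was -0.15 with a 95% interval of -0.40 to 0.10. Differences inside this interval cannot be told from 0 with these libraries.

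Cdon (Entrez gene 57810, chr9:35421528-35507652), a cell-surface coreceptor that presents ligand to Ptch1, was the most abundant of the 10 genes. It was at 557, 612 and 582 CPM in WT and at 553, 749 and 634 CPM in cKO. cKO replicate 1 was the lowest of all libraries and cKO replicate 2 the highest, so the spread inside the cKO group spanned the WT values. This gave a log2 fold change of 0.14 (95% interval -0.12 to 0.41). Without cKO replicate 1 it was 0.25, with an unadjusted p of 0.0319 in the same edgeR test and an adjusted p of 0.626, and without cKO replicate 2 it was 0.02. Boc (Entrez gene 117606, chr16:44485045-44558870), the related coreceptor, was at 132, 106 and 110 CPM in WT and at 121, 126 and 109 CPM in cKO. These groups overlapped, and the log2 fold change was 0.03 (95% interval -0.20 to 0.25).

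Sufu (Entrez gene 24069, chr19:46396896-46488804), which binds Gli proteins and keeps them inactive, was at 86.7, 71.3 and 79.4 CPM in WT and at 82.4, 88.2 and 69.2 CPM in cKO. The 2 groups covered nearly the same range. Sufu had a log2 fold change of 0.01 (95% interval -0.24 to 0.27). Gli2 (Entrez gene 14633, chr1:118834061-119054405), the main activator of the family, was at 88.8, 74.0 and 86.3 CPM in WT and at 84.6, 97.7 and 79.3 CPM in cKO. The groups overlapped, with a log2 fold change of 0.07 (95% interval -0.16 to 0.31).

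Gli3 (Entrez gene 14634, chr13:15463723-15730026), the main repressor of the family and a regulator of dorsal telencephalic identity, was at 200, 247 and 249 CPM in WT. In cKO it was at 168, 271 and 226 CPM, so the lowest and the highest library were both cKO. Means were 232 ± 27.7 CPM in WT and 221 ± 51.5 CPM in cKO (SD, n = 3 each). The log2 fold change was -0.07 (95% interval -0.46 to 0.32), the widest interval among the abundant genes. Without cKO replicate 1 it turned to 0.10. The count table does not separate the processing of Gli2 and Gli3 proteins into activator or repressor, so only the transcripts are described. cKO replicate 2 was the highest of all 6 libraries for 4 of the 9 tested genes, namely Sufu, Gli2, Gli3 and Cdon (18% of all tested genes).

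**Figure D2:**
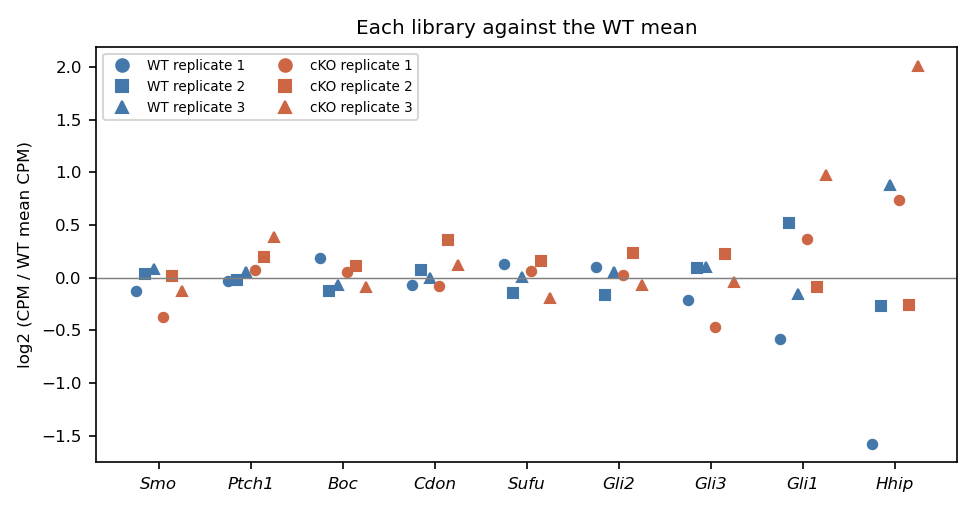
CPM of each library relative to the WT mean of the same gene, on a log2 scale, for the 9 tested genes (blue WT, orange cKO, 1 point per library, horizontal line at the WT mean). The groups overlap for every gene except Ptch1, and cKO replicate 3 is the highest library for Ptch1, Gli1 and Hhip.

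The pathway targets were examined next, since their transcripts report signalling. Ptch1 (Entrez gene 19206, chr13:63508328-63573460) was at 16.6, 16.7 and 17.6 CPM in WT and at 17.8, 19.4 and 22.1 CPM in cKO. The groups did not overlap, although WT replicate 3 and cKO replicate 1 were almost equal. Means were 17.0 ± 0.58 CPM in WT and 19.8 ± 2.17 CPM in cKO (SD, n = 3 each). The log2 fold change was 0.22 (standard error 0.11, 95% interval -0.02 to 0.47, edgeR unadjusted p = 0.0666).

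Gli1 (Entrez gene 14632, chr10:127329882-127341579), an activator that is itself induced by the pathway, had 17, 37 and 23 counts in WT and 33, 24 and 52 counts in cKO. This gave 1.07, 2.29 and 1.44 CPM in WT and 2.06, 1.51 and 3.14 CPM in cKO, and the groups overlapped. WT replicate 2, the library with the low Ybx1 level, was the highest of the WT group. Gli1 had a log2 fold change of 0.48 (95% interval -0.38 to 1.34). The antisense gene Gm47200 overlaps 9584 bases of Gli1 on the opposite strand, and Arhgap9, at 0.063 to 0.377 CPM, overlaps 62 bases, so part of these few counts cannot be assigned.

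Hhip (Entrez gene 15245, chr8:79965850-80058060), a membrane protein that binds and sequesters ligand, had 2, 5 and 11 counts in WT and 10, 5 and 25 counts in cKO. These were 0.126, 0.310 and 0.688 CPM in WT and 0.624, 0.314 and 1.51 CPM in cKO. The groups overlapped, and WT replicate 1 was under the level of 3 counts that a count of 0 still allows. The log2 fold change was 1.11 with a 95% interval of -0.53 to 2.76, which spans more than any other gene of the pathway described here.

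All 3 targets were highest in cKO replicate 3, the library with epidermis and meninges RNA, as were 15.8% of all tested genes. In that library Ptch1 was 1.26 times, Gli1 1.88 times and Hhip 3.66 times the mean of the other 5 libraries, and the other detected genes of the 10 were 0.848 to 1.04 times that mean. Without cKO replicate 3 the log2 fold change of Ptch1 was 0.14 (edgeR unadjusted p = 0.262), that of Gli1 was 0.15 and that of Hhip was 0.32. Without both WT replicate 2 and cKO replicate 3 the values were 0.12 for Ptch1, 0.51 for Gli1 and 0.20 for Hhip. WT libraries moved the values too: Gli1 reached 0.83 without WT replicate 2, and Hhip reached 1.87 without WT replicate 3. Without cKO replicate 1 Ptch1 was at 0.30, with an unadjusted p of 0.0260 and an adjusted p of 0.626. Skin and meningeal tissue also contain cells that respond to Hedgehog ligands, and the part of that tissue in the target levels was not tested.

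**Figure D3:**
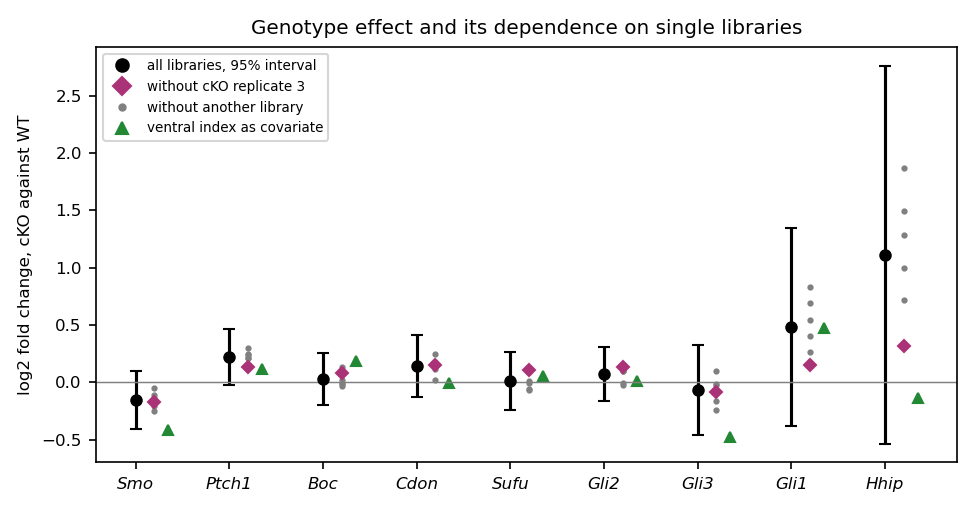
Log2 fold change of cKO against WT for the 9 tested genes (black points with 95% intervals), beside the value without cKO replicate 3 (purple), without each other library in turn (grey) and with the ventral index as a covariate (green). All intervals include 0, and the values of Hhip run from -0.13 to 1.87.

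**Figure D4:**
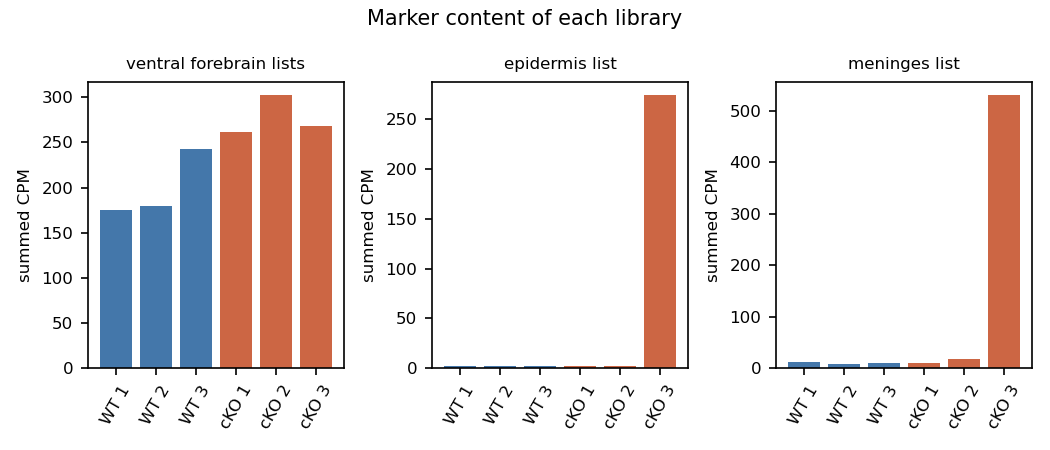
Summed CPM of the ventral forebrain, epidermis and meninges marker lists in each library (1 bar per library, blue WT, orange cKO, axes starting at 0). Epidermis and meninges markers are high in cKO replicate 3 alone, at 274 and 530 CPM, and ventral markers are at 176 to 242 CPM in WT and 261 to 302 CPM in cKO.

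The sequence upstream of the start was available from RefSeq (GRCm38.p6) for 7 of the 10 genes: Ptch1, Smo, Sufu, Gli2, Gli3, Hhip and Cdon. The 250 bases before the transcript start that the RefSeq table uses were searched on both strands for the Gli consensus GACCACCCA. An exact match was found in 0 of the 7 windows and a match with 1 mismatch also in 0, against 0.225% and 5.79% of 32851 promoter windows. The windows of Ptch1 and Hhip are shown because both are targets and had the same highest library. That of Ptch1 (chr13:63565736-63565985, minus strand) has 78.4% G and C, and that of Hhip (chr8:80058009-80058258, minus strand) has 76.0%. For Ptch1, Gli2 and Cdon that start lies inside the gene as bounded above, and the Hhip window overlaps the end of its gene, so these windows do not precede every annotated start. Capitals mark the 9 bases nearest to the consensus, which carry 3 mismatches in Ptch1 (opposite strand) and 2 in Hhip (strand as shown). Where stretches tie, as in Ptch1, only the first is marked. At least as near a match as that of Hhip was held by 51.8% of all windows.
Ptch1: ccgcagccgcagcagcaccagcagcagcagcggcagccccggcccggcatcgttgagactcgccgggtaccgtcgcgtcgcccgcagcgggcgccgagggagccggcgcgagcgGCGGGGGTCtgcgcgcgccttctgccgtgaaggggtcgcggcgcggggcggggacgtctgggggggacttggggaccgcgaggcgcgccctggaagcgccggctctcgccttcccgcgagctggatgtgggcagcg
Hhip: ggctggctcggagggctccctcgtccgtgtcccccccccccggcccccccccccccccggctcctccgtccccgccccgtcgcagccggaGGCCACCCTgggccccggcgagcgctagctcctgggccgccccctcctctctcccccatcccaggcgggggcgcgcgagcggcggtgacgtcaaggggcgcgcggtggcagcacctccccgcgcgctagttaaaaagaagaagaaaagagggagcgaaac
The absence of these letters concerns these windows alone and says nothing of Gli binding elsewhere in the genes.

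Since the ganglionic eminences border the dissected cortex and respond to Shh, the target genes were set against the ventral marker content of each library. A ventral index was computed as the mean of log2(CPM + 1) over 29 ventral forebrain genes, none of them a pathway gene described above. It was 1.86, 1.98 and 2.23 in WT and 2.28, 2.41 and 2.35 in cKO, so each cKO library lay above each WT library. The difference of the means was 0.32 (WT 2.02 ± 0.19, cKO 2.35 ± 0.065, SD, n = 3 each), with p = 0.1 by an exact two-sided permutation test, the smallest p that 3 against 3 libraries allow. Without WT replicate 2 and cKO replicate 3 it was 0.30. In bulk tissue, more cells of a type and more RNA per cell cannot be told apart. The index also holds interneuron genes such as Sst and Dlx1, so it cannot separate eminence tissue from interneurons within the cortex. The 13 genes shared by the eminences differed by 0.40 (exact permutation p = 0.2), the 7 genes of the medial eminence by 0.33 (exact permutation p = 0.1) and the 9 genes of the lateral eminence by 0.20 (exact permutation p = 0.3).

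Most ventral markers tested had positive fold changes, beside 50.8% of all genes. Of the shared list all 10 tested genes had positive fold changes (median log2 fold change 0.57), as did 4 of 4 of the medial list (median 0.56) and 4 of 6 of the lateral list (median 0.30). Sst, the neuropeptide of interneurons from the medial eminence, was at 9.67, 7.75 and 9.25 CPM in WT and at 20.3, 19.3 and 19.7 CPM in cKO. Its log2 fold change was 1.15 (standard error 0.11, edgeR adjusted p = 0.0953), and it passed the threshold in 2 of the 16 alternative fits, DESeq2 (adjusted p = 5.46e-10) and edgeR with a replicate block (adjusted p = 0.0381), the adjusted p ranging up to 0.974. Dlx1 and Dlx5, transcription factors of the interneuron lineage, had log2 fold changes of 0.76 and 0.79, and Npy, a neuropeptide, of 0.74 (edgeR adjusted p = 0.99995 each). WT replicate 3 had 36.3 CPM of Dlx1 against 17.1 and 16.6 CPM in the other WT libraries, and without it the log2 fold changes of Dlx1 and Dlx5 were 1.23 and 1.20. Nkx2-1, which Shh signalling switches on in the medial eminence, had 0.063 to 0.126 CPM in WT and 0.241 to 0.437 CPM in cKO and was not tested. Its WT values lie under the 0.181 to 0.188 CPM that a count of 0 allows, and its cKO values are little above. Lhx8 and Gbx1, the other untested medial genes, were at 0 to 0.125 CPM and 0 to 0.314 CPM, and their groups overlapped. Of the 7 ventral midline and hypothalamus genes found in the table, 0 passed the filter, and 5 were at or under 3 counts in every library. Sim1, a hypothalamic factor from that list, was at 3.20 CPM in cKO replicate 3 and at 0.062 to 0.376 CPM elsewhere.

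Across the 6 libraries Ptch1 followed the ventral index with Pearson's r = 0.77 (exact permutation p = 0.0611, adjusted over the 9 genes 0.55) and Spearman's rho = 0.94 (exact permutation p = 0.0167, adjusted 0.15). Without WT replicates 1 and 2, the libraries farthest from the median index, r was 0.66, and without cKO replicate 3 it was 0.93. With the 7 medial genes alone as the index, r of Ptch1 was 0.42 (exact permutation p = 0.442, adjusted 0.745). Gli1 had r = 0.40 (exact permutation p = 0.419, adjusted 0.94) and rho = 0.43 (exact permutation p = 0.419, adjusted 0.895), and r = 0.22 without those libraries and 0.20 without cKO replicate 3. Hhip had r = 0.62 (exact permutation p = 0.199, adjusted 0.729) and rho = 0.60 (exact permutation p = 0.242, adjusted 0.725), and r turned to -0.12 without them, so that relation rested on those libraries. Without cKO replicate 3 it was 0.61. The 6 other genes had r between -0.15 (Boc) and 0.57 (Cdon), and 0 of the 9 passed 0.05 after adjustment. Against the medial genes alone Smo had r = -0.84 (exact permutation p = 0.0292, adjusted 0.262), compared with -0.08 against the whole index. All r and rho were computed with the gene level as log2(CPM + 1). The points share 2 genotypes with 3 libraries each, too few for a value within a genotype. The permutations exchanged libraries across genotypes. Ptch1 and the index both separate the genotypes, so their relation cannot be told apart from the genotype difference.

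**Figure D5:**
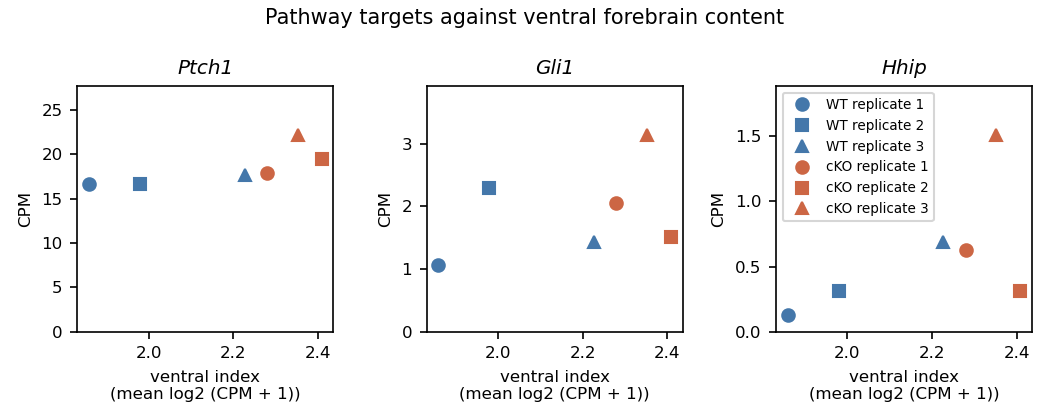
CPM of Ptch1, Gli1 and Hhip (vertical axes, starting at 0) against the ventral index of the same library (horizontal axes), 1 point per library, blue WT and orange cKO. Ptch1 is higher at higher index (r = 0.77), Gli1 is scattered (r = 0.40), and for Hhip cKO replicate 3 stands above the rest at 1.51 CPM. The r values were computed on log2(CPM + 1), not on the CPM shown.

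With the ventral index as a covariate in the edgeR fit, the log2 fold change of Ptch1 was 0.11, that of Gli1 0.48 and that of Hhip -0.13. The standard error of Hhip was 1.07 in this fit, so its sign is not settled. The values of Smo (-0.41, unadjusted p = 0.0424, adjusted p = 0.974 in the edgeR fit), Gli3 (-0.48, standard error 0.26), Gli2 (0.012) and Cdon (-0.0084) were also lower than without the covariate. Those of Boc (0.18) and Sufu (0.056) were higher. The index itself separates the genotypes, so covariate and genotype cannot be fully told apart in this fit.

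The rest of the pathway was described from a list of 50 symbols, which match 49 genes, since Adrbk1 is an older symbol of Grk2. Of these, 46 were tested, 18 with positive and 28 with negative fold changes, with a median log2 fold change of -0.014. None passed the adjusted threshold (0% of all genes). By edgeR 1 had an unadjusted p under 0.05, lower in cKO, where 1.81% of all tested genes were lower at that p. This was Evc, which codes for a ciliary protein that acts with Smo and is named here after its values were seen. Evc was at 36.5, 38.9 and 37.6 CPM in WT and at 30.8, 34.8 and 32.6 CPM in cKO. The groups did not overlap (log2 fold change -0.20, edgeR unadjusted p = 0.0377, adjusted p = 0.99995). By DESeq2 0 genes of the list had an unadjusted p under 0.05. By edgeR without cKO replicate 1 the list had 7, beside 1053 over all genes. In all, 0 of the 46 genes had every cKO library above every WT library and 3 had every cKO library below, beside 4.21% and 4.83% of all genes.

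Among the abundant regulators, Csnk1a1 and Gsk3b, kinases that phosphorylate Gli proteins for processing, had log2 fold changes of -0.07 and -0.12. The largest fold changes of the list were those of Gpc3 and Lrp2. Gpc3, a glypican that competes for ligand, was at 9.49, 13.3 and 11.6 CPM in WT and at 10.3, 12.7 and 49.7 CPM in cKO. Its log2 fold change of 1.08 fell to 0.0014 without cKO replicate 3, in which it was 4.33 times the mean of the other libraries. Lrp2, an endocytic receptor for Shh in the ventral forebrain, had 0.31 (95% half-width 1.14). Gas1, a further coreceptor, was at 210 to 235 CPM in WT and 212 to 287 CPM in cKO (log2 fold change 0.13), and cKO replicate 2 was its highest library, as for Cdon. Gpr161, a ciliary receptor that favours Gli repressor, was at 114 to 125 CPM in WT and 101 to 119 CPM in cKO (log2 fold change -0.12), and Kif7, the ciliary kinesin that guides Gli proteins, was at 22.4 to 25.1 and 21.8 to 23.5 CPM (log2 fold change -0.06). Gas1, Gpr161, Kif7, Ihh, Dhh, Nkx2-1 and Sim1 were named for their roles after their values were seen, and Lhx8 and Gbx1 were named beside Nkx2-1 likewise.

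The primary cilium, where Smo and the Gli proteins meet, was described by 32 genes, all tested. Of these 15 had positive and 17 negative fold changes, with a median log2 fold change of -0.025 and a range of -0.21 to 0.14. The adjusted threshold was passed by 0 of 32 and the unadjusted p of 0.05 also by 0, by edgeR and by DESeq2 alike. Dync2h1, the motor that carries cargo back from the ciliary tip, had the largest difference, with 82.1, 98.9 and 86.1 CPM in WT and 64.5, 84.8 and 82.1 CPM in cKO (log2 fold change -0.21, 95% half-width 0.27). The groups overlapped, with cKO replicate 1 lowest. Bbs1, part of the ciliary trafficking complex BBSome, had -0.15, and Kif3a and Kifap3, subunits of the outward kinesin motor, had -0.04 and -0.08.

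The genes whose profile over the 6 libraries was most like the mean of Gli1, Ptch1 and Hhip (each standardised log2 CPM) were Ccdc127 (Pearson's r = 0.99), Eppk1 (0.98), Wscd2 (0.98), Fam174b (0.98) and Vamp8 (0.98), out of 12934 candidates with a mean of at least 1 CPM. With 6 libraries and this many candidates such values are a description only. All 5 had their highest level in cKO replicate 3, and without that library their r was 0.87 to 0.95. Eppk1, which codes for an epithelial cytolinker protein, was at 0.942 to 1.62 CPM in the other libraries and at 3.38 CPM in that one, whereas Ccdc127 moved only from 74.8 to 78.6 CPM over all 6. Of the other pathway genes, Sufu had r = -0.68, Gli3 r = 0.04 and Cdon r = 0.25 with the same mean.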

How the data were processed

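RNA was extracted from E13.5 cortices with Trizol, and mRNA libraries (Optimal Dual-mode mRNA Library Prep Kit) were sequenced by the authors on a DNBSEQ platform. The submitters' processing notes name HISAT2 2.2.1, Bowtie2 2.4.5, RSEM 1.3.1 and the build GRCm38, with no order or roles, and the strand setting is not given in the sources used here. The authors deposited estimated counts with no scaling for depth, 10.9% of them not whole, which were rounded to whole numbers. The TPM values deposited by the authors are scaled for length and depth and were used for levels between genes and for 1 alternative. The FPKM values deposited by the authors and 6 columns of group averages were not used.

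Genotype and replicate number came from the sample titles. Genes were kept by filterByExpr (minimum count 10, minimum total 15), leaving 13340 of 17348. The main test was edgeR 4.0.16 (R 4.3.3, quasi-likelihood, TMM, genotype only, two-sided) with Benjamini-Hochberg adjustment over all tested genes and a threshold of 0.05. Standard errors are the log2 fold change divided by the square root of F, and 95% intervals use the t quantile of that fit. The procedure was tested on simulated data. Replicates are separate samples per the series description. The limit for a count of 0 was set at 3 counts in every library. It was turned into CPM with the library's total over the kept genes times its TMM factor. As alternatives, factors were computed by RLE or upper quartile, the filter was dropped or raised to 10 counts in each library, and the test was replaced by limma-voom (limma 3.58.1) or DESeq2 1.42.0. Further fits had a replicate block, the ventral index as a covariate or fewer libraries. limma on log2(TPM + 1) was chosen after seeing the data. Coordinates and promoter windows are from RefSeq of GRCm38.p6, matched by symbol, and overlapping genes are from GENCODE.

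The 10 genes and all lists were chosen with earlier results of these data known. The named genes were drawn from the 10 genes, Ybx1, from each list the genes under an adjusted p of 0.05 or else the 2 most abundant and the 2 with the largest absolute fold change, and the 5 genes most correlated with the targets. The text says where others were named after their values were seen.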

Additional observations from a re-analysis of the deposited data

How the results depend on the processing

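None of the 9 tested pathway genes passed an adjusted p of 0.05 in the 16 alternative fits, nor did any other pathway or cilium gene. Over the fits the log2 fold change ranged from 0.11 to 0.30 for Ptch1, from 0.15 to 0.83 for Gli1, from -0.13 to 1.87 for Hhip and from -0.41 to -0.05 for Smo. Over all genes, 0 higher and 0 lower genes were called in the main test, 2 and 2 by DESeq2, 1 and 1 without both WT replicate 2 and cKO replicate 3, and 0 to 1 in each direction when single libraries were left out (1 and 1 without WT replicate 2). The total at an unadjusted p of 0.05 was 476, but 301 with the ventral covariate, 239 without WT replicate 3, 1053 without cKO replicate 1 and 246 without both doubted libraries. The cause of these shifts was not tested.

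A replicate block, that is, the replicate number as a term, gave 1 higher and 1 lower gene at the adjusted threshold, while 1090 genes passed an unadjusted p of 0.05. Correlations of the deviations of same-numbered libraries were 0.49, 0.33 and 0.0038. WT replicates 1 and 2 each correlated best with the cKO library of the same number, and WT replicate 3 with cKO replicate 2 (0.30). Whether the numbers mark a shared batch is not stated, so they were not taken as pairs. Whether they are pairs cannot be told here. Under the block 2 of the 9 genes had an unadjusted p under 0.05 (Ptch1, log2 fold change 0.22, and Smo, -0.16), and none an adjusted one.

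The sign turned with the ventral covariate for Hhip (-0.13), Cdon (-0.0084), Dlx1 (-0.25), Dlx5 (-0.050) and the median of the ventral lists (-0.081). Dlx1, Dlx5 and the lists are themselves part of that index, so their loss was fixed by its construction. When single libraries were left out, Sufu ranged from -0.063 to 0.11, Gli2 from -0.020 to 0.13, Boc from -0.032 to 0.13 and Gli3 from -0.24 to 0.10. Correlations with ventral content turned with the medial list (Sufu 0.24, Gli3 -0.63, Boc 0.33, Cdon -0.0087), the shared list (Smo 0.050, Sufu 0.062) and the lateral list (Smo 0.29, Gli2 -0.0084). Without 1 library, or without both WT replicate 2 and cKO replicate 3, and so over 4 or 5 libraries, r was 0.72 to 0.93 for Ptch1 and 0.39 to 0.91 for Hhip. It turned in sign for Gli1 (-0.11 to 0.71), Smo (-0.28 to 0.19), Sufu (-0.39 to 0.49), Gli2 (-0.069 to 0.76), Gli3 (-0.096 to 0.65) and Boc (-0.54 to 0.68). Hhip was not tested when 10 counts were required in every library. Depth limits Gli1, Hhip and Shh.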

Other observations

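Other cell types in the dissected tissue were counted from marker lists, since Hedgehog targets are also expressed outside the neural lineage. The 10 endothelial and pericyte genes, all tested, had a median log2 fold change of 0.10 and summed to 109 to 161 CPM in WT and 130 to 160 CPM in cKO. The 7 tested microglia genes had a median of 0.09, with sums of 22.4 to 35.4 CPM in WT and 24.5 to 32.8 CPM in cKO. All 8 tested erythroid genes had positive fold changes (median 0.20), with sums of 641 to 877 CPM in WT and 690 to 1119 CPM in cKO, and the groups overlapped. The 6 tested cortical hem and choroid plexus genes had a median of -0.22, with sums of 32.0 to 50.9 CPM in WT and 27.2 to 46.0 CPM in cKO. No gene of these 4 lists passed the adjusted threshold of the edgeR test.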
